A study of Mus musculus with 9 samples.

Results

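The brightest circular RNA signals of mouse intestinal tumours were compared between a high-fat diet group, titled HFD, and a group titled CTR. Of the 14236 circRNA probes on the array, 2039 (14.3%) were brighter than every negative probe on all 6 arrays of these groups. The rule looks at brightness on every array and not at the difference between the groups. It leaves out any circRNA that was dim on even 1 array, and thus one lost altogether in either group. HFD and CTR had 3 arrays each, and a further group of 3 arrays, HFD+Abx, is used only where named. The design text of the series spells out HFD, but not CTR or Abx. The labels give intestinal tumours of Mus musculus for all groups, with no strain, age, tumour model, diet composition or feeding time. Whether each array stands for an animal of its own is not stated. The p-values therefore set group differences only against the spread among these samples, which may be technical.

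Circular RNAs arise when a splice donor is joined to an acceptor upstream of it, which closes 1 or more exons, mostly of protein-coding genes, into a loop without ends. Lacking ends, the loops resist exonucleases such as RNase R, which was used here to digest linear RNA before labelling, and they outlast most mRNAs in the cell. Some bind microRNAs or proteins, and their levels are known to be low in quickly dividing cells, where division dilutes them. Tumour tissue holds many cell types, and in such bulk samples fewer cells of a type and less RNA per cell cannot be told apart. In the files each circRNA probe has only an array ID, with no host gene, position or sequence beside it. The results therefore describe groups of probes, and IDs are printed for 2 circRNAs in each direction.

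Each level is a log2 signal minus that array's 75th percentile over its circRNA probes, so that a probe at 0 is as bright as that percentile and a step of 1 is a doubling. Over the 6 arrays the mean levels of the 2039 circRNAs ran from 0.62 to 10.2, with a median of 2.16. They held 84.7% to 87.8% of the summed circRNA signal of an array. The 10 brightest held 12.5% to 15.6% and the 100 brightest 40.0% to 46.8%. The share of the 10 brightest was 14.6% ± 1.1 in HFD and 13.8% ± 1.4 in CTR (SD, n = 3), and the groups overlapped (two-sided exact permutation p = 0.50, adjusted p = 0.90 over 9 such array values). For 3 arrays against 3, the smallest p this test can give is 0.10. The median level of the 2039 was 2.07 to 2.27 on the HFD arrays and 2.11 to 2.29 on the CTR arrays, also overlapping (exact permutation p = 0.60, adjusted p = 0.90). Before scaling, the 75th percentile stood at intensities of 95.3 to 105.6 on the HFD arrays and 110.0 to 119.2 on the CTR arrays. These groups did not overlap, at the smallest p the test can give (exact permutation p = 0.10, adjusted p = 0.90).

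The brightness limit came from the same negative probe on all 6 arrays, and it moved between them. That probe was at 0.91 on CTR 1, 0.45 on CTR 2, 0.43 on CTR 3, 0.72 on HFD 1, 0.40 on HFD 2 and 0.02 on HFD 3. The number of circRNAs above it on a single array accordingly ran from 2160 on CTR 1 to 3533 on HFD 3. HFD 2 (2872) and HFD 3 were above every CTR array and CTR 1 was below every HFD array, but HFD 1 (2387) was below CTR 2 and CTR 3, so the groups overlapped (exact permutation p = 0.40, adjusted p = 0.90). Of the probes that were not bright on all 6 arrays, 10617 were bright on none and 245 on 5. The 20 circRNAs just inside the limit differed between the groups by -0.27 to 0.32 and the 20 just outside by -0.21 to 0.94. Being bright in 1 group alone was rare. Only 3 circRNAs were bright on all 3 HFD arrays and no CTR array, and 0 showed the reverse. These 3 differed by 0.32 to 0.56, with 0 at 1.5-fold, and 0 passed in limma. With 1 shared limit for all arrays, set after seeing the data at the highest of the 6 values, there were 3 and 2. None of the first 3 was among these.

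The arrays of a group were not more alike than arrays of different groups. Across the 2039 circRNAs, which are not independent replicates, the mean correlation was 0.962 within CTR, 0.961 within HFD and 0.966 between CTR and HFD arrays. The closest pair was CTR 1 and HFD 1 (r = 0.990), in which 8 circRNAs differed by at least 2-fold. The farthest was CTR 1 and HFD 3 (r = 0.943), with 106. CTR 3 and HFD 3 had the most circRNAs at least 2-fold apart, at 166. Within groups that number was 69 to 81 between CTR arrays and 54 to 121 between HFD arrays.

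A division across the groups accounted for much of the spread. CTR 2 and HFD 3 were together the 2 highest or the 2 lowest arrays for 859 circRNAs (42.1%), as the highest pair for 666 and the lowest for 193. The pair CTR 3 and HFD 2 did so for 488 (23.9%) and the pair CTR 1 and HFD 1 for 476 (23.3%). The first principal component, with 44.3% of the variance, placed HFD 3 at 14.7 and CTR 2 at 10.03, and the other 4 arrays between -7.47 and -3.65. The second, with 26.7%, ran from CTR 1 at -10.9 to HFD 2 at 11.3. Neither component had the HFD arrays on one side and the CTR arrays on the other. The 14 probes that the array names circRNA controls set CTR 2 apart, but not HFD 3. Most of the 14 were not above the brightness limit on all 6 arrays. CTR 2 was the lowest of the 6 arrays for 12 of the 14. Against the median of the other arrays, CTR 2 was at a median of -0.68 over the 14. HFD 3 was the lowest for 0 and the highest for 0, at a median of -0.10.

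**Figure D1:**
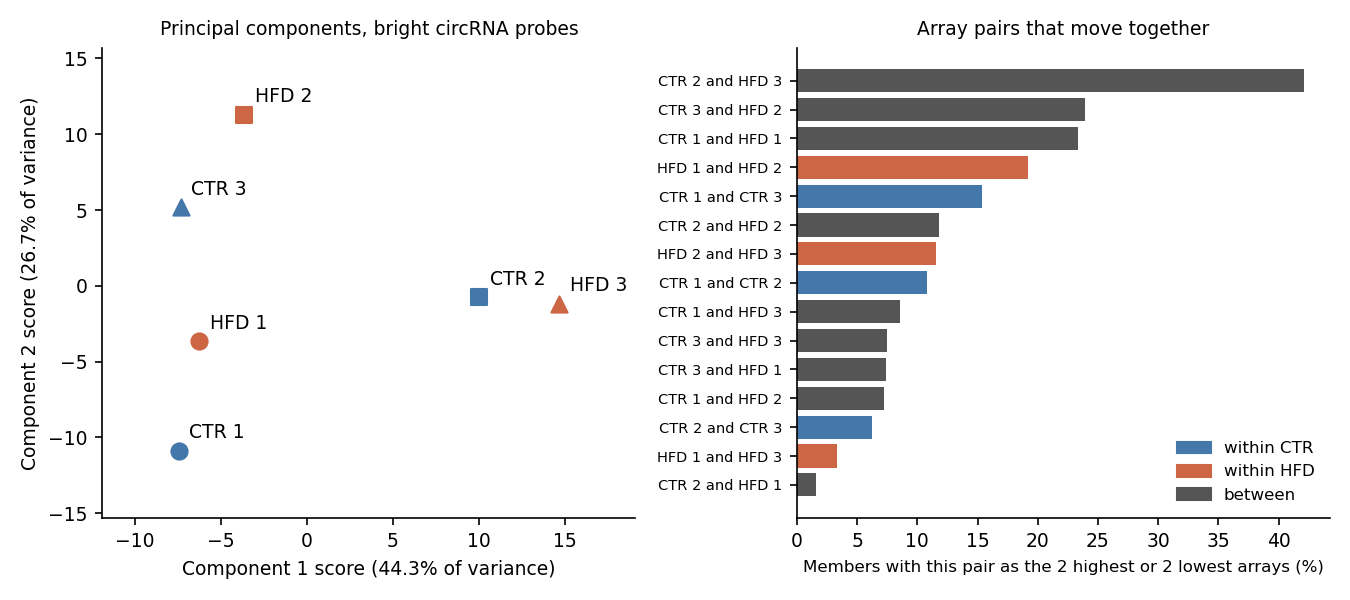
Left, scores of the 6 arrays on the first 2 principal components of the 2039 bright circRNA probes (CTR blue, HFD orange). Right, the percentage of these probes for which a pair of arrays were the 2 highest or the 2 lowest, with pairs of different groups in grey. CTR 2 lies beside HFD 3, and the 3 most frequent pairs all join a CTR array to an HFD array.

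Some circRNAs varied widely from tumour sample to tumour sample, and most of these shared their highest and lowest arrays with others. The range over the 6 arrays was at least 2-fold for 433 circRNAs and at least 4-fold for 29, against a median range of 0.65 in log2 units. All 29 were lower in HFD by mean, by -0.97 to -0.08, against 66.7% of the 2039 and 54.3% of all tested probes. None of the 29 had groups that did not overlap, and the lowest unadjusted limma p among them was 0.13 (adjusted p = 0.99). For 25 of the 29 the range was 4-fold within CTR or within HFD alone. In 19 of the 29 the lowest array was HFD 3. In 18 of these 19, CTR 1 was the highest array and HFD 1 the next. Taken from each circRNA's own mean, the medians of these 19 were 1.33 on CTR 1, 0.75 on HFD 1, 0.08 on HFD 2, -0.002 on CTR 2, -0.42 on CTR 3 and -1.74 on HFD 3. A second profile was shared by 6 circRNAs with CTR 2 as the lowest array. Their medians were 1.22 on CTR 1, 1.19 on CTR 3 and 0.68 on HFD 1, against -0.25 on HFD 2, -1.04 on HFD 3 and -1.70 on CTR 2. The other 4 were lowest on HFD 2.

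The spots of the 29 lay in rows 7 to 186 and columns 1 to 79 of the array, and their mean levels ran from 1.96 to 8.01. The widest range of all was 3.70 in log2 units. This circRNA was at 6.46 on CTR 1, 4.90 on CTR 2 and 4.39 on CTR 3. On HFD 1 it was at 5.71, on HFD 2 at 4.68 and on HFD 3 at 2.76. The groups overlapped, since HFD 1 was above CTR 2 and CTR 3, and HFD minus CTR was -0.87 (SE 0.76, 95% interval -2.63 to 0.89) with an adjusted p of 0.99 in limma. The 29 were picked for their spread, so their profiles are a description. Without names for the circRNAs, whether those of one profile share a host gene or a cell type was not tested.

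**Figure D2:**
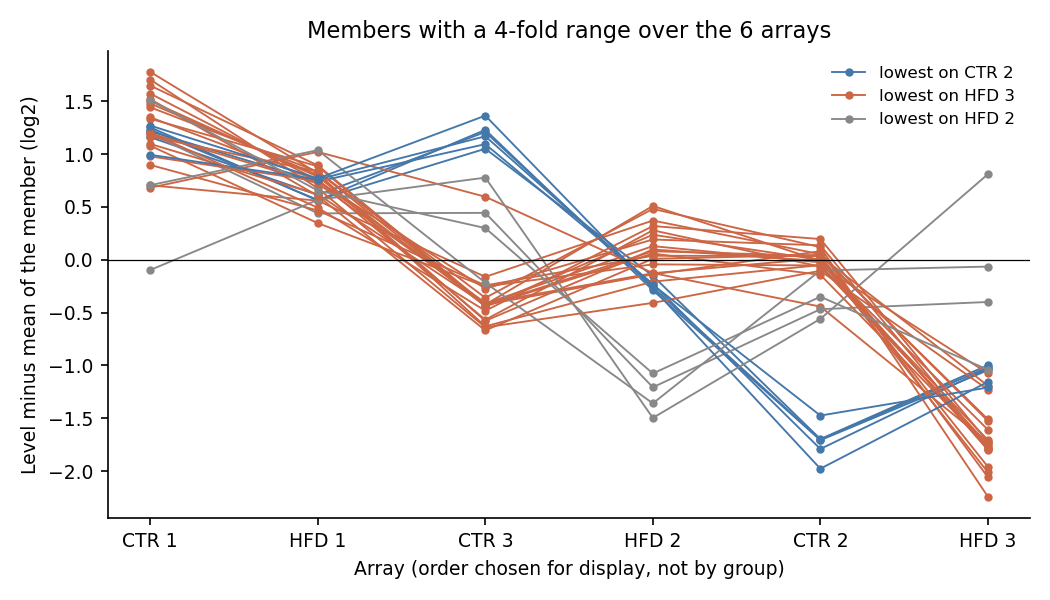
Level of each of the 29 circRNA probes with at least a 4-fold range, as log2 difference from its own mean over the 6 arrays, with lines joining the values of a probe. CTR 1 is the highest array for 18 of the 19 probes lowest on HFD 3 (orange), and for the 6 lowest on CTR 2 (blue) it is CTR 1 or CTR 3.

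The comparison of HFD with CTR asked which well-detected circRNAs change in the tumours with the diet. None of the 2039 passed an adjusted p under 0.05 in limma (smallest adjusted p = 0.99), and neither did any of the 13412 circRNA probes tested (0%). At an unadjusted p under 0.05 there were 32 of 2039 (1.57%), against 4.7% of all tested probes. Of the 32, 20 were higher in HFD and 12 lower, against 3.57% higher and 1.13% lower over all tested probes. This split moved with the scaling, to 15 and 14 with equal medians, 19 and 7 with the percentile taken over the 2039 alone, and 19 and 89 with normexp background correction. With limma's variance trend and robust setting there were 27. In the main scaling the bright circRNAs thus held a smaller share at this threshold than the tested probes at large. Most of the latter were dimmer than the brightest negative probe. The count of bright circRNAs was 108 with normexp and 65 in the deposited log2 table. The share over all tested probes was not computed for the other scalings.

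With a change of at least 1.5-fold in addition, 14 remained (0.687%), 10 higher in HFD and 4 lower. Over all tested probes this share was 1.83%, with 1.55% higher and 0.276% lower. The count rested on single arrays. Without CTR 2 it was 62, of which 47 were lower, and without HFD 1 it was 37, of which 19 were lower. Without HFD 3 it was 23, and without CTR 3 it was 21. Without HFD 2 it was 9, and without CTR 1 it stayed at 14. The groups did not overlap for 100 circRNAs (4.9%), against 9.27% of all tested probes. Of these 25 were higher and 75 lower in HFD, against 4.61% and 4.66% over all tested probes. The size of that split depended on the scaling, at 35 and 43 with the percentile over the 2039 and 33 and 66 with quantile normalisation. It was 22 and 90 with equal medians, 22 and 126 with normexp and 29 and 76 in the deposited log2 table. More were lower than higher in each, but the shares over all tested probes were not computed for these scalings.

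**Figure D3:**
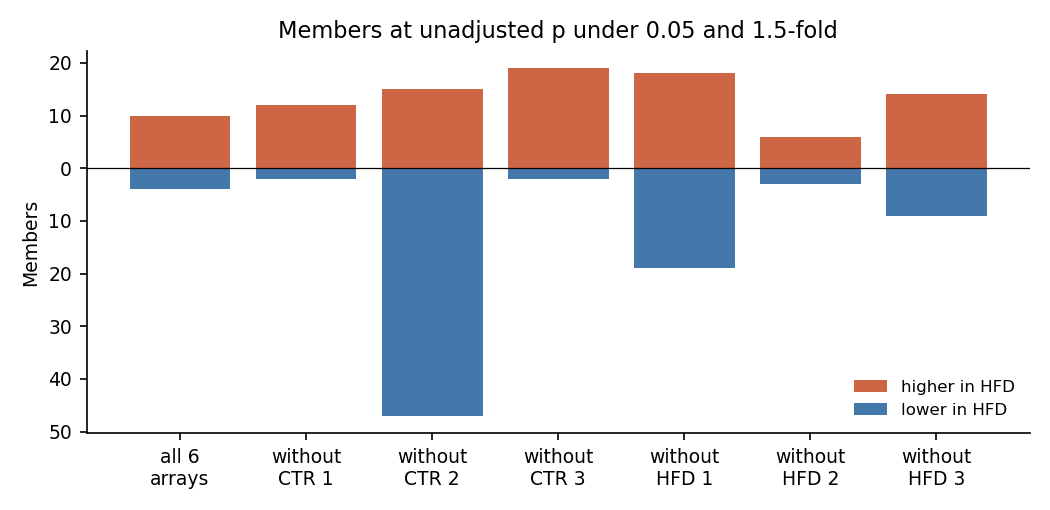
Bright circRNA probes that met both an unadjusted p under 0.05 and a 1.5-fold change, counted as higher in HFD (upward, orange) and lower in HFD (downward, blue), with all 6 arrays and without each array in turn. The 4 lower probes become 47 without CTR 2.

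The largest positive difference was that of ASCRP4004313. Its level was 2.23 on CTR 1, 2.41 on CTR 2 and 2.89 on CTR 3, and 3.20 on HFD 1, 3.88 on HFD 2 and 3.44 on HFD 3. Every HFD array was above every CTR array, with HFD 1 nearest to them. The means were 3.51 ± 0.35 in HFD and 2.51 ± 0.35 in CTR (SD, n = 3). HFD minus CTR came to 1.0 (SE 0.24, 95% interval 0.46 to 1.54), a ratio of 2.0, with an adjusted p of 0.99 in limma, which is no pass. It was the only circRNA of the 2039 with means at least 2-fold apart, and only just, at 1.0002. Over the alternatives its difference ran from 0.69 to 1.19. The lowest came with array position as a block, which sets HFD 1 alone against CTR, and the highest without CTR 3.

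ASCRP4014118 had the next largest. It stood at 1.28 on CTR 1, 0.86 on CTR 2 and 1.32 on CTR 3. On HFD 1 it was at 1.62, on HFD 2 at 2.42 and on HFD 3 at 1.82. HFD 2 was the farthest from CTR and HFD 1 the nearest, and the groups did not overlap. The difference was 0.80 (SE 0.23, 95% interval 0.26 to 1.34), which did not pass in limma (adjusted p = 0.99). With array position as a block, which sets HFD 1 alone against CTR, it was 0.47.

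Among circRNAs lower in HFD, ASCRP4011878 had the largest difference under the naming rule, which takes those whose groups do not overlap. Its level was 4.41 on CTR 1, 4.35 on CTR 2 and 4.08 on CTR 3. The HFD arrays were all lower, at 3.41 on HFD 1, 3.41 on HFD 2 and 3.84 on HFD 3. The means were 3.55 ± 0.25 in HFD and 4.28 ± 0.18 in CTR (SD, n = 3). HFD minus CTR came to -0.72 (SE 0.18, 95% interval -1.13 to -0.32), with an adjusted p of 0.99 in limma.

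ASCRP4001381 came next and rested on 1 array. It was at 1.64 on CTR 1, 1.55 on CTR 2 and 1.69 on CTR 3, and at 1.37 on HFD 1, 0.44 on HFD 2 and 1.27 on HFD 3. HFD 2 was far below the other HFD arrays and close to the brightness limit of 0.40 on that array. The difference was -0.60 (SE 0.25) with an adjusted p of 0.99 in limma, and it was -0.31 without HFD 2 and -0.26 with array position as a block.

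The naming rule took 12 circRNAs as higher and 10 as lower, the latter being all that met it. The other 10 higher ones differed by 0.39 to 0.78 and the other 8 lower ones by -0.55 to -0.34. Their mean levels ran from 1.12 to 5.19 and from 1.11 to 5.72, and none of the 100 brightest of the 2039 was among them. None of the 22 passed in limma (adjusted p = 0.99 for each). Of the 12 higher ones HFD 2 was the highest array for 10 and HFD 3 for 2. Of the 10 lower ones HFD 2 was the lowest for 7. HFD 2 was also the lowest array for 683 (33.5%) of all 2039. A number in the array headers, taken here as the position column on the slide, was 2 for HFD 2 and 3. It was 1 for HFD 1 and the CTR arrays. With position as a block, 4 of the 22 kept an unadjusted p under 0.05.

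**Figure D4:**
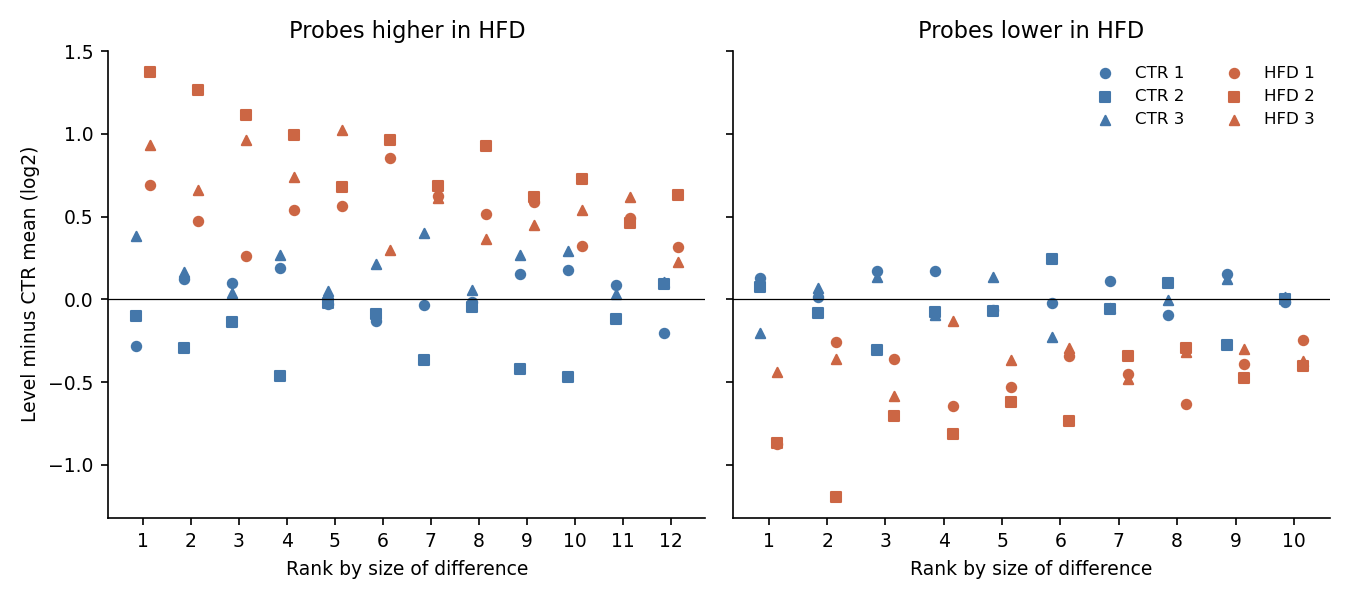
Levels of the 12 circRNA probes taken as higher in HFD (left) and the 10 taken as lower (right), as log2 difference from the CTR mean of the probe, on each of the 6 arrays. CTR (blue) and HFD (orange) do not overlap for any of them, as the rule required, and HFD 2 (orange squares) is the highest array for 10 of the 12 on the left.

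The same 4 circRNAs were measured in HFD+Abx, whose arrays 2 and 3 were taken to be on another slide. ASCRP4004313 averaged 3.39 ± 0.55 and ASCRP4014118 1.90 ± 0.27 there (SD, n = 3). ASCRP4011878 averaged 3.49 ± 0.76 and ASCRP4001381 0.83 ± 0.67. The HFD means of the 4 were 3.51, 1.95, 3.55 and 1.02 in the same order, and the CTR means 2.51, 1.15, 4.28 and 1.63. For the last 2 the HFD+Abx arrays were split. ASCRP4011878 was at 4.23, 3.53 and 2.71 on HFD+Abx 1 to 3, and ASCRP4001381 at 1.61, 0.45 and 0.43. The HFD+Abx mean lay between the CTR and HFD means for 10 of the 12 circRNAs taken as higher and 4 of the 10 taken as lower. All 22, the 4 among them, were chosen because their CTR and HFD arrays lay apart. These counts are therefore a description, and no test was made.

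Differences in mean of at least 1.5-fold were seen in 35 of the 2039 circRNAs (1.72%), 10 higher and 25 lower. Over all tested probes the share was larger, at 2.68%, and its balance was the opposite, with 2.07% higher and 0.611% lower. The split of the 2039 also moved with the scaling, to 17 and 15 with the percentile over the 2039, 13 and 19 with quantile normalisation, 11 and 16 in the deposited table, 9 and 32 with equal medians and 7 and 28 with normexp. All 10 higher ones had an unadjusted p under 0.05 and 4 of the 25 lower ones did. The lower ones had a median level of 4.31, and a median SD of 0.81 in CTR and 0.82 in HFD. CTR 1 was the highest array for 22 of these 25, and HFD 3 the lowest for 14. Of the 25, 13 belong to the 29 with a 4-fold range. The largest was -0.97 (SE 0.57, 95% interval -2.29 to 0.34). That circRNA was at 7.64, 5.78 and 6.43 on CTR 1 to 3 and at 6.79, 5.06 and 5.09 on HFD 1 to 3, so the groups overlapped, and it did not pass in limma (adjusted p = 0.99).

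**Figure D5:**
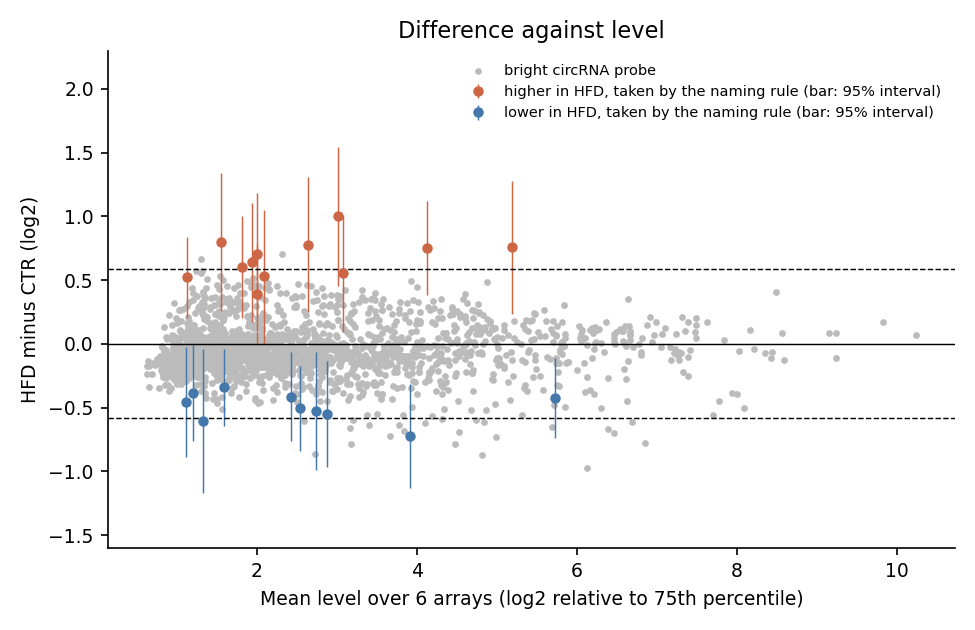
Difference of the group means (HFD minus CTR, log2) against the mean level over the 6 arrays for the 2039 bright circRNA probes. Coloured points with 95% intervals are those taken by the naming rule, and dashed lines mark a 1.5-fold change. Between these lines lie all but 35 of the probes, with 10 above and 25 below.

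The precision of the comparison differed with brightness. The median size of the difference was 0.12, and the median SD within groups was 0.26. Repeated spots of a probe within an array had a median SD of 0.030 to 0.044, over 23 to 37 bright probes per array. These probes carry 10 spots each and are mRNA, control and other probes, not the circRNA probes compared here. Spots within an array leave out variation between arrays, so how much of the SD of 0.26 is technical was not tested. The difference exceeded the larger of the 2 group SDs for 319 circRNAs (15.6%), against 21.7% of all tested probes. For 1855 (91.0%) the unadjusted 95% interval of the difference lay wholly within a 2-fold change in both directions. For 1038 (50.9%) it lay within a 1.5-fold change. Over all tested probes these shares were 91.0% and 54.7%. Brighter classes of circRNAs varied more, though not the 10 brightest, whose median SD within groups was 0.18. Over 4 classes of 509 or 510 circRNAs, from the dimmest to the brightest, the median SD within groups was 0.20, 0.24, 0.26 and 0.32. The share whose interval excluded a 1.5-fold change was 62.9%, 57.1%, 50.9% and 32.7% in the same order. The 10 brightest circRNAs, at levels of 8.43 to 10.2, differed by -0.12 to 0.40, and their intervals all excluded a 2-fold change. The brightest of all was at 10.2 on CTR 1, CTR 2, CTR 3, HFD 2 and HFD 3 after rounding and at 10.4 on HFD 1.

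The arrays also hold 50 probes for mRNAs, 44 of them with a symbol in RefSeq (GRCm38.p6). By the same limit 11 were bright on all 6 arrays and 33 on none, after linear RNA had been digested. Bright probes included Olfr1307 and Olfr166, which encode olfactory receptors, and Lhx1, which encodes a transcription factor of developing tissues. Olfr1307 was at 3.50, 3.38 and 3.4 on CTR 1 to 3 and at 3.36, 3.04 and 3.17 on HFD 1 to 3. All HFD values were below all CTR values, and the difference of -0.24 (SE 0.14) did not pass in limma (adjusted p = 0.99). Others were Apoe, a lipid carrier of lipoproteins, Pex11a, which acts in the division of peroxisomes, and Gamt, an enzyme of creatine synthesis. Duox1, an enzyme that makes hydrogen peroxide, and Chgb, a secretory granule protein of endocrine cells, were bright as well. H2-Q7, a class I molecule of the major histocompatibility complex, showed 1 array apart. It was at 3.56, 3.29 and 3.36 on CTR 1 to 3 and at 3.09, 4.30 and 2.93 on HFD 1 to 3, with HFD 2 above and the other HFD arrays below CTR (difference 0.04, SE 0.34). Actb, the cytoskeletal actin, was bright on only 4 of the 6 arrays, with levels of 0.12 to 1.1.

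None of the 11 bright mRNA probes differed between HFD and CTR in limma, fitted together with the circRNA probes (differences of -0.24 to 0.15, adjusted p = 0.986 to 0.998). None of the 11 and 3 of the 50 had an unadjusted p under 0.05, and none of the 50 passed. None of the 27 markers listed for epithelium, stroma, endothelium, immune cells and muscle had a probe among the 50. The labelled tissue was therefore not checked against markers, and changes in its cell makeup were not tested. The same holds for 10 genes of branched-chain amino acid breakdown and uptake, among them Bcat2, the enzyme in the series title, none of which had a named probe.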

How the data were processed

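CircRNA levels were measured on one-colour Agilent arrays (Cy3) after RNase R treatment, per the labels' protocols. The scanner tables the authors deposited hold spot intensity; per the file headers they were made by Agilent Feature Extraction (version 11.0.1.1), and the processed signal is corrected for background within the array but not scaled from one array to the next. A second deposited table gives log2 values of 14218 circRNA probes with nearly equal quartiles in each column. The submitters' processing notes name limma without saying what it did, and this table served as an alternative only.

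All 6 arrays of HFD and CTR carry 1 scan identifier and were taken to share a slide. The array position used as a block was read from the barcode field of the headers, which does not name it so. Outlier spots were dropped (between 3 and 22 for circRNAs on each array, which kept 30 probes out of the bright set), and no spot was saturated. Log2 processed signals were scaled to the 75th percentile of circRNA probes, with repeated spots averaged. For testing, a circRNA probe had to be well above background on 3 or more of the 6 arrays and have 2 or more values in each group. The 13412 that did were fitted in limma 3.58.1 (R 4.3.3; lmFit, eBayes, Benjamini-Hochberg over all of them), and the 2039 were read from that fit. Brightness was judged against the probe means of 15 negative probes. The mRNA and other probes were fitted together with the circRNA probes. Single values per array were compared with exact permutation tests (scipy 1.17.1). The code was tested on simulated data. The number of arrays limits the precision.

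The naming rule took up to 12 circRNAs in each direction with the largest change among those at an unadjusted p under 0.05 whose groups do not overlap. Members, lists and tests were chosen with earlier results of these data known. The planned normexp correction used the median spot signal, as the files used here give no mean signal.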

Additional observations from a re-analysis of the deposited data

How the results depend on the processing

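No circRNA of the bright set passed the adjusted threshold under any of the 15 alternatives that refitted the data. The smallest adjusted p in limma was 0.37, without HFD 1. The rest of the 22 alternatives run only changed the brightness filter. They read from the main fit, in which no tested probe passed, so they could not give a pass. The number of circRNAs with an unadjusted p under 0.05 and a 1.5-fold change was 14, and stayed within 1.5 times of that under 13 of 24 alternatives, among them all 9 arrays in the fit, the other scalings, normexp and the deposited log2 table. It was 8 among probes 2-fold above the brightest negative probe, 167 among those above the median negative probe, 245 among all tested probes and 26 without the brightest negative probe, a filter chosen after seeing the data. A 2-fold threshold left 1 and an unadjusted p under 0.01 left 7. Leaving out 1 array gave 9 to 62. With replicate number as a block (paired fit) it was 28, of which 9 were higher and 19 lower, and 0 passed. Deviations of same-numbered arrays correlated at 0.68, -0.11 and -0.26 for numbers 1 to 3, and those of CTR 2 and HFD 3 at 0.56. These few values cannot settle whether the numbers pair the arrays. Over the 15 alternatives that gave one, the differences of the 4 circRNAs named by ID lay between 0.69 and 1.19 for ASCRP4004313, 0.47 and 0.96 for ASCRP4014118, -0.87 and -0.65 for ASCRP4011878, and -0.78 and -0.26 for ASCRP4001381. Their direction was largely fixed by the choice of groups that do not overlap, and their adjusted p ran from 0.56 to 0.9999. The cause of these shifts was not tested. The limit that defines the bright set rests on 1 negative probe, and host genes and sequences of the circRNAs were not analysed here.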
